A study of Saccharomyces cerevisiae with 8 samples.

Results

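The effect of PPN1 overexpression was examined here in *Saccharomyces cerevisiae* grown in control medium. Of the 8 RNA sequencing libraries of the series, 4 belong to this comparison, namely 2 cultures of CRN/PPN1 and 2 cultures of CRN, chosen by their strain and medium labels. Both strains are MATa ade2 his3 ura3 ppn1Δ::CgTRP1, so the chromosomal PPN1 gene is deleted in both. CRN/PPN1 is CRN that carries the pMB1/PPN1 Sc vector and overproduces the polyphosphatase Ppn1. CRN is the untransformed parent, and its genotype label reads WT although it lacks PPN1. Both were grown at 29 °C for 12 h in YPD, a rich glucose medium, to which KH2PO4 had been added at 14 mM. The other 4 libraries come from the same strains in YPD with 5 mM MnSO4. A CRN culture with an empty vector is not among these libraries, so carrying the vector and producing Ppn1 cannot be told apart, and the promoter that drives PPN1 on the vector is not given in the sources used here. The replicate cultures of a strain were grown at the same time, so the p-values measure the spread between simultaneous cultures.

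Inorganic polyphosphate is a chain of phosphate residues that yeast stores mainly in the vacuole. The VTC complex in the vacuolar membrane makes it from ATP, and Ppn1 is one of the enzymes that cut it. When phosphate is short, the transcription factor Pho4 enters the nucleus and, with Pho2, turns on the PHO regulon, which holds genes for phosphate uptake, secreted phosphatases and the VTC complex. Pho4 binds the sequence CACGTG. A separate pair of factors, Msn2 and Msn4, turns on a broad stress programme when growth is slowed by heat, oxidants or loss of glucose, through the sequence AGGGG, called the stress response element. Genes for ribosomes and for ribosome assembly usually move the other way in that programme.

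The 4 libraries held 3690000 to 4700096 reads, of which 91.5% to 92.3% mapped uniquely, and 2712570 to 3181290 of them were counted on genes. Values below are normalized CPM, counts relative to the effective library size after TMM scaling, which sets the bulk of the genes equal between libraries. A gene was called when its adjusted p in edgeR's quasi-likelihood test was at most 0.05 and its log2 fold change, CRN/PPN1 over CRN, was at least 1 in size. In each library 3 counts, taken as the floor of detection, equal 1.22 to 1.86 normalized CPM, and these floors cover counting error only. The libraries differed in make-up. The 100 most abundant genes took 47.2% and 45.1% of gene counts in CRN/PPN1, against 57.5% and 51.2% in CRN. Cytosolic ribosomal protein genes alone took 38.1% and 36.6% in CRN/PPN1, against 51.5% and 45.6% in CRN. When libraries were scaled to their totals and not by TMM, the median log2 fold change over all tested genes moved to 0.50, where TMM gave -0.01, and values under library-total scaling below are to be read against that shift.

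The targeted gene separated the strains. PPN1 (YDR452W, chrIV:1362878-1364902, plus strand) had 2945 and 3057 normalized CPM in CRN/PPN1, against 5.58 and 3.93 in CRN (log2 fold change 9.30 ± 0.65 SE, adjusted p = 4.3e-07). In counts this was 7216 and 7027 in CRN/PPN1, against 9 and 7 in CRN. The low counts in CRN libraries lie above the floor of 3 counts although the coding gene is deleted there. The counts do not separate chromosomal from vector transcripts. Among the marker genes of strain construction, URA3, an enzyme of uracil synthesis, also rose, with 427 and 388 normalized CPM in CRN/PPN1, against 97.9 and 94.96 in CRN (log2 fold change 2.08 ± 0.21 SE, adjusted p = 1.5e-05). ADE2, of purine synthesis, had 245 and 227 normalized CPM in CRN/PPN1, against 180.3 and 188 in CRN (log2 fold change 0.36 ± 0.18 SE, adjusted p = 0.21). HIS3, of histidine synthesis, had 37.5 and 24.8 normalized CPM in CRN/PPN1, against 32.8 and 30.9 in CRN, and TRP1, of tryptophan synthesis, had 24.1 and 29.6 normalized CPM in CRN/PPN1, against 24.8 and 16.9 in CRN. Neither HIS3 nor TRP1 passed the test, with adjusted p-values of 0.97 and 0.61, and the strains overlapped in both. LEU2, of leucine synthesis, did not pass either, with 255 and 250.2 normalized CPM in CRN/PPN1, against 212 and 195 in CRN (adjusted p = 0.29).

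Over all genes, 257 of 5778 tested genes rose in CRN/PPN1 (4.45%) and 257 fell (4.45%), together 8.9%. The median log2 fold change of the risen genes was 1.62 and that of the fallen genes -1.21. Large changes were more often rises, since 72 genes rose and 19 fell at least 4-fold by the fitted values. In all 514 called genes both CRN/PPN1 cultures lay on the same side of both CRN cultures, but the same held for 57.9% of all tested genes. For 15 risen genes both CRN libraries were at or under the floor, and for 4 fallen genes both CRN/PPN1 libraries were. In bulk cultures a change in the make-up of the cells and a change in RNA per cell cannot be told apart. Scaled by library totals and not by TMM, the 2 CRN cultures differed more from each other than the 2 CRN/PPN1 cultures. The chi-square per gene was 10 between the CRN/PPN1 cultures and 18 between the CRN cultures, where 1 is counting noise alone. Differences in make-up between libraries enter this value and were not separated from noise of single genes. The split between rises and falls depended on scaling, as 913 genes rose (15.8%) and 37 fell (0.64%) with library totals and 322 rose and 188 fell with upper-quartile scaling. It also depended on single libraries, as 147 rose and 105 fell without the second CRN/PPN1 library, and 225 rose and 145 fell without the first CRN library.

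After PPN1 itself, the largest rises at 100 or more normalized counts were led by HSP12, a small membrane-associated stress protein, and DDR2, a small stress protein. Both belong to the stress programme described below. TMA10, a protein associated with ribosomes, had 858 and 1029 normalized CPM in CRN/PPN1, against 86.1 and 102 in CRN (log2 fold change 3.33 ± 0.24 SE, adjusted p = 5.1e-07). MRK1, a kinase of the glycogen synthase kinase 3 family, had 366 and 365 normalized CPM in CRN/PPN1, against 53.3 and 32.6 in CRN (log2 fold change 3.10 ± 0.28 SE, adjusted p = 7.0e-06). EGO4, a small protein under Msn2 and Msn4, had 6161 and 8254 normalized CPM in CRN/PPN1, against 986 and 751 in CRN (log2 fold change 3.05 ± 0.28 SE, adjusted p = 7.0e-06). In each of these the lower CRN/PPN1 culture was several times the higher CRN culture. MPC3, a subunit of the mitochondrial pyruvate carrier, had 148 and 266 normalized CPM in CRN/PPN1, against 32.2 and 26.97 in CRN (log2 fold change 2.81 ± 0.35 SE, adjusted p = 1.0e-04). HAB1 had 98.3 and 111 normalized CPM in CRN/PPN1, against 15.5 and 15.7 in CRN (log2 fold change 2.74 ± 0.31 SE, adjusted p = 4.8e-05). ATG17, the scaffold on which autophagosome formation starts, had 130.2 and 137 normalized CPM in CRN/PPN1, against 23.5 and 18.5 in CRN (log2 fold change 2.67 ± 0.24 SE, adjusted p = 7.0e-06). MPC3 was the least even of them between the CRN/PPN1 cultures.

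**Figure D1:**
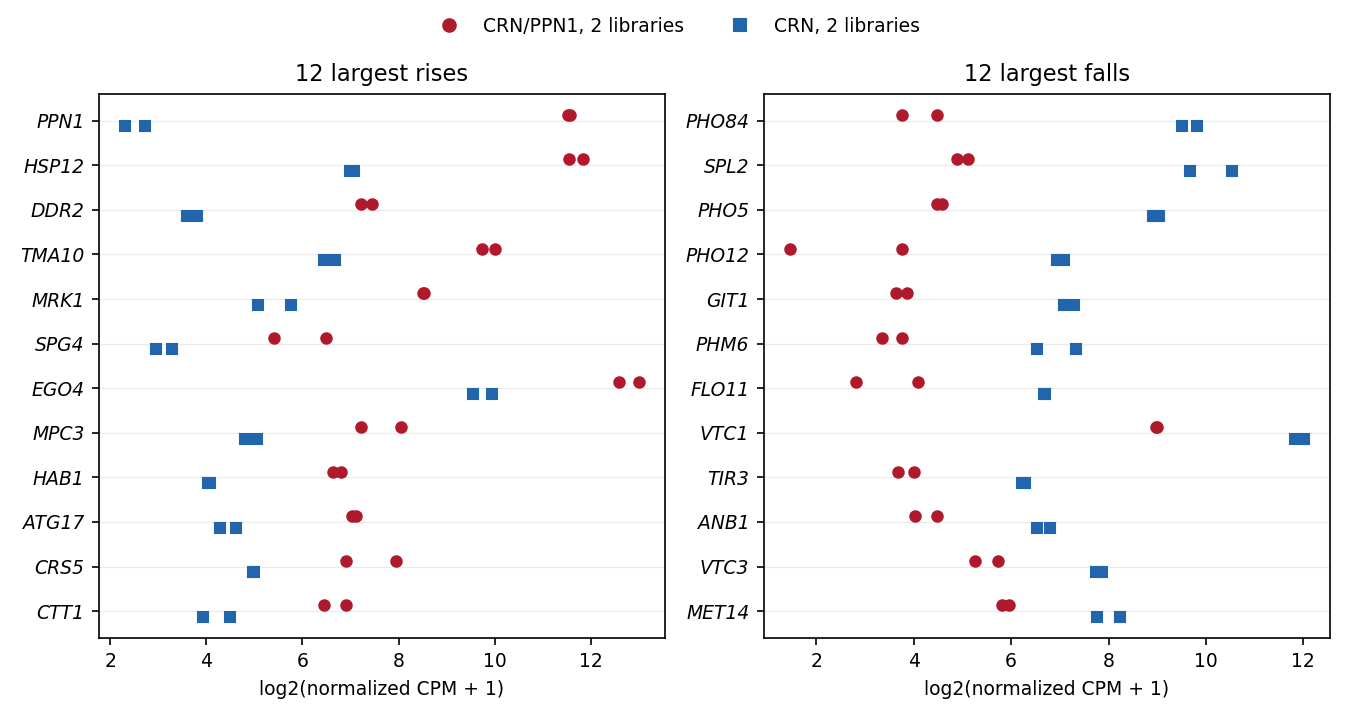
Normalized CPM, as log2(CPM + 1), of the 12 largest rises (left) and 12 largest falls (right) in CRN/PPN1 against CRN among genes with at least 100 normalized counts, with 1 circle per CRN/PPN1 library and 1 square per CRN library. Only genes without overlap between circles and squares were eligible, so the lack of overlap was set by the selection. Of the 12 falls, 8 are genes of the PHO regulon.

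The falls were led by genes of the PHO regulon. Outside it, FLO11, a cell surface flocculin, had 15.9 and 6.09 normalized CPM in CRN/PPN1, against 102 and 103 in CRN (log2 fold change -3.20 ± 0.38 SE, adjusted p = 6.2e-05). ANB1, an isoform of translation factor eIF5A made mainly when oxygen is scarce, had 21.2 and 15.2 normalized CPM in CRN/PPN1, against 110.3 and 91.03 in CRN (log2 fold change -2.46 ± 0.32 SE, adjusted p = 1.6e-04). MET14, the kinase of sulfate assimilation, had 55.5 and 60.9 normalized CPM in CRN/PPN1, against 302 and 217 in CRN (log2 fold change -2.16 ± 0.25 SE, adjusted p = 5.0e-05). All 3 genes were picked among genes without overlap, so both CRN/PPN1 cultures lay below both CRN cultures by that rule.

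Most of the PHO regulon fell. Of 18 listed Pho4-controlled genes, 12 fell and 0 rose, where 4.45% of all tested genes fell, and the median log2 fold change was -2.63. Under library-total scaling 11 still fell, with a median of -2.12. Leaving out any single library of the 4 gave 11 falls each time, but not of the same genes. PHO11 was not called in any of these fits, and without the first CRN library PHO89 was not called and VTC2 was. The genes of phosphate uptake moved furthest, followed by the phosphatases and the enzymes of polyphosphate synthesis. The members' levels are drawn in the plot of Pho4-controlled genes.

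Of the transporters, all 3 fell. PHO84 (YML123C, chrXIII:24037-25800, minus strand), the high-affinity phosphate transporter of the plasma membrane, which also carries manganese, had 12.6 and 21.3 normalized CPM in CRN/PPN1, against 722 and 906 in CRN (log2 fold change -5.59 ± 0.29 SE, adjusted p = 1.7e-08). GIT1, which takes up glycerophosphoinositol, had 11.4 and 13.5 normalized CPM in CRN/PPN1, against 135 and 156 in CRN (log2 fold change -3.55 ± 0.26 SE, adjusted p = 6.9e-07). PHO89, a sodium-coupled phosphate transporter, had 0.408 and 0.435 normalized CPM in CRN/PPN1, against 14.2 and 5.06 in CRN, which is at or under the floor in both CRN/PPN1 libraries and at least 7.63-fold lower than in CRN (adjusted p = 0.0030), and it was called in 12 of the 15 alternatives run. Transcripts of all 3 transporters were thus lower in each CRN/PPN1 culture than in each CRN culture. Of the phosphatases, 3 of 4 fell. PHO5 (YBR093C, chrII:429548-430951, minus strand), the main secreted acid phosphatase, had 21.2 and 23.1 normalized CPM in CRN/PPN1, against 479 and 524 in CRN (log2 fold change -4.50 ± 0.23 SE, adjusted p = 1.7e-08). Its close relatives PHO11 and PHO12 differ from each other at few positions, and since reads that map to several places were not counted, their values are uncertain. PHO12 had 12.6 and 1.74 normalized CPM in CRN/PPN1, against 121 and 134 in CRN (log2 fold change -4.12 ± 0.49 SE, adjusted p = 6.5e-05). PHO11 had 1.22 and 0.435 normalized CPM in CRN/PPN1, against 6.81 and 15.7 in CRN, at least 8.91-fold lower (adjusted p = 0.034), and this call was lost in each fit that left out a library. PHO8, the vacuolar alkaline phosphatase, had 117 and 134 normalized CPM in CRN/PPN1, against 199 and 223 in CRN (log2 fold change -0.75 ± 0.20 SE, adjusted p = 0.017), which passed the p threshold but not the fold limit.

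Of the 4 VTC genes on the list 3 fell. VTC1 (YER072W, chrV:302806-303195, plus strand), a small membrane subunit of the VTC complex, had 506 and 505 normalized CPM in CRN/PPN1, against 4135 and 3648 in CRN (log2 fold change -2.94 ± 0.21 SE, adjusted p = 5.1e-07). VTC3, a regulatory subunit, had 37.1 and 52.2 normalized CPM in CRN/PPN1, against 214 and 234 in CRN (log2 fold change -2.33 ± 0.22 SE, adjusted p = 9.3e-06). VTC4, the subunit that polymerizes phosphate, had 42.8 and 48.7 normalized CPM in CRN/PPN1, against 133 and 209 in CRN (log2 fold change -1.9 ± 0.24 SE, adjusted p = 9.5e-05). The remaining regulatory subunit VTC2 had 99.6 and 107 normalized CPM in CRN/PPN1, against 154 and 253 in CRN (log2 fold change -0.98 ± 0.30 SE, adjusted p = 0.037) and stayed just short of the fold limit. All 4 VTC genes were lower in both CRN/PPN1 cultures than in both CRN cultures. VTC5, an accessory subunit, is outside the regulon list and is counted with the signalling genes below.

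Among the regulators and small proteins, 3 of 7 fell. SPL2 (YHR136C, chrVIII:374654-375100, minus strand), a small protein that lowers the low-affinity phosphate transporters, had 28.6 and 33.5 normalized CPM in CRN/PPN1, against 1477 and 812 in CRN (log2 fold change -5.20 ± 0.35 SE, adjusted p = 2.7e-07). PHO81, the inhibitor of the cyclin-dependent kinase Pho85 and so an activator of the pathway, had 52.6 and 67.9 normalized CPM in CRN/PPN1, against 166 and 147 in CRN (log2 fold change -1.38 ± 0.21 SE, adjusted p = 5.7e-04). PHM6, of unknown function, had 12.6 and 9.14 normalized CPM in CRN/PPN1, against 160.5 and 91.03 in CRN (log2 fold change -3.52 ± 0.37 SE, adjusted p = 2.9e-05). The 4 others did not pass. PHO86, an endoplasmic reticulum protein needed to export Pho84, had 68.96 and 65.3 normalized CPM in CRN/PPN1, against 119.6 and 129.8 in CRN (log2 fold change -0.89 ± 0.26 SE, adjusted p = 0.029). PHM8, a nucleotide phosphatase, had 86.9 and 86.6 normalized CPM in CRN/PPN1, against 94.2 and 79.8 in CRN (adjusted p = 0.99). GPP2, a glycerol phosphatase, had 73.04 and 58.3 normalized CPM in CRN/PPN1, against 60.7 and 41.02 in CRN (adjusted p = 0.34). CTF19, a kinetochore gene that shares its promoter with VTC3, had 22.03 and 10.4 normalized CPM in CRN/PPN1, against 42.1 and 30.9 in CRN (adjusted p = 0.15). PHO86 was lower in both CRN/PPN1 cultures, and PHM8 overlapped between the strains.

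The Pho4 sites of the genes with the largest falls are shown because almost every member of the regulon has one. Searching both strands over 600 bases before the start codon, CACGTG was found in 17 of 18 PHO regulon genes (94.4%) and in 404 of 5537 tested genes with an annotated start (7.30%). All 12 fallen members held it, as did 5 of the 6 others. The list was drawn up from knowledge of Pho4, so the share is a description of the list. Windows of 300 bases from the RefSeq genome (build R64, sacCer3) are printed 5′ to 3′ on the strand of the gene, with each CACGTG in capitals. The PHO84 window runs from base -436 to -137 before the start codon (chrXIII:25937-26236, minus strand), and the other 3 windows end at base -1 (PHO5, chrII:430952-431251, minus strand; SPL2, chrVIII:375101-375400, minus strand; VTC1, chrV:302506-302805, plus strand).
PHO84: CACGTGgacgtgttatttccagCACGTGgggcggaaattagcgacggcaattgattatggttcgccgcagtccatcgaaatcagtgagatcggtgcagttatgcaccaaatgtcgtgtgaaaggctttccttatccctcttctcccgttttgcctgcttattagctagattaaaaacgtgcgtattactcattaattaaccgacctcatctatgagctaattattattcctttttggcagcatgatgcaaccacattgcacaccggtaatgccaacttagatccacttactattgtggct
PHO5: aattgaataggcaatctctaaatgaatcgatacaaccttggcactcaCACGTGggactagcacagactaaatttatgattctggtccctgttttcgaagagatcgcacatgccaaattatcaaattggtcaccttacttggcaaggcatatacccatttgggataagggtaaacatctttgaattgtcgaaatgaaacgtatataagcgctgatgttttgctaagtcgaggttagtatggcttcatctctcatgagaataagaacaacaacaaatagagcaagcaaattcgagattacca
SPL2: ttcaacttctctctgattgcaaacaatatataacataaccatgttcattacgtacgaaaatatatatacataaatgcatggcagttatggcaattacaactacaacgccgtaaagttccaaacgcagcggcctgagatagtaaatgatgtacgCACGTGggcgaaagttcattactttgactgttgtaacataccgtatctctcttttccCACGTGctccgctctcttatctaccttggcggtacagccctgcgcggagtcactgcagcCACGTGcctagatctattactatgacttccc
VTC1: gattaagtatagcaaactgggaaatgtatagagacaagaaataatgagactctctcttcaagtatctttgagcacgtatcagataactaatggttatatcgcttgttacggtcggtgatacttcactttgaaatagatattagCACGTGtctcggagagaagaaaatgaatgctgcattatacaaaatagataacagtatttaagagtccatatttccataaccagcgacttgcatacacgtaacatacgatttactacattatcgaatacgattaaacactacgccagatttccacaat

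PHO84 held 2 sites, SPL2 held 4 sites of which 3 lie in the printed window, and PHO5 and VTC1 held 1 each. A match to these letters is a description of the sequence only. In all tested genes, 0.921% held at least 2 such sites, against 5 of the 18 regulon genes.

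**Figure D2:**
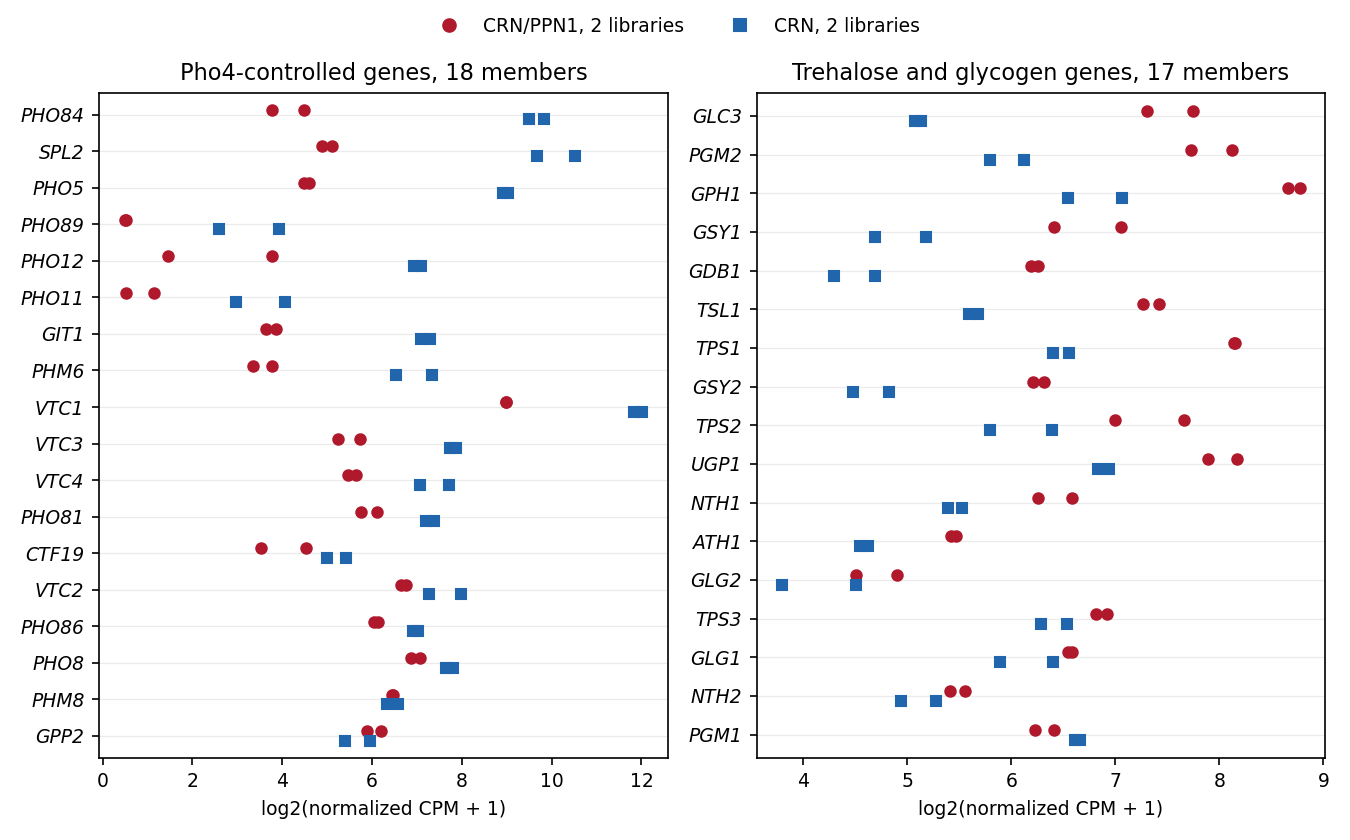
Normalized CPM, as log2(CPM + 1), of the 18 Pho4-controlled genes (left) and the 17 trehalose and glycogen genes (right), with 1 circle per CRN/PPN1 library and 1 square per CRN library, ordered by log2 fold change. Circles lie left of squares for the 12 genes of the left panel that fell, and right of squares for the 10 genes of the right panel that rose.

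A separate list held 18 genes for PHO signalling, low-affinity phosphate transport, phosphate export and polyphosphate hydrolysis. Of these 0 rose and 0 fell, where 4.45% of all tested genes rose and 4.45% fell. Their median log2 fold change was -0.10. Under library-total scaling 2 of the 18 rose, where 15.8% of all tested genes rose. The lowest value in the group was that of PPN2, another vacuolar polyphosphatase, with 142 and 165 normalized CPM in CRN/PPN1, against 246 and 229 in CRN (log2 fold change -0.63 ± 0.18 SE, adjusted p = 0.031), below the fold limit. PHM7, a membrane protein once named for its response to phosphate, went opposite to the PHO regulon. It had 11.02 and 12.6 normalized CPM in CRN/PPN1, against 0 and 0 in CRN, so that it was not detected in CRN and was at least 6.67-fold higher in CRN/PPN1 (adjusted p = 6.2e-05), and it was called under every alternative run.

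PHO84 is also known to be transcribed on the antisense strand. Reads on the gene strand, antisense to the counted transcripts, were therefore examined after the data had been seen. The counted strand held 90.7% to 91.3% of the reads assigned to genes. PHO84 had 34 and 41 such reads in CRN/PPN1, against 6 and 1 in CRN (log2 fold change 2.90 ± 0.65 SE, adjusted p = 0.055), which missed the threshold. Values above 0 were common on this strand, with a median log2 fold change of 0.295 over all 2840 genes with enough such reads. Within the PHO regulon, VTC3 had 2.51, PHO81 1.75, PHO86 1.73, PHO5 1.43, PHM6 1.34 and VTC1 1.17 on the gene strand. PHM8 had 0.81, and CTF19, which overlaps IRC15 on the other strand, had 0.83. PHO89 had 6.25, with 0 and 0 such reads in CRN. GPP2 went the other way at -0.66, with 303 and 355 such reads in CRN/PPN1, against 439 and 298 in CRN. None of these was called. No annotated gene overlaps PHO84 or ATG17 on the other strand. Of the 2840 genes, 9 rose (0.317%) and 9 fell (0.317%), and none of the 11 tested PHO regulon genes did. ATG17 was among those that rose, with 100 and 101 gene-strand reads in CRN/PPN1, against 17 and 14 in CRN (log2 fold change 2.20 ± 0.39 SE, adjusted p = 0.016).

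Many genes of the general stress list rose. Of 42 genes listed for it, 24 rose and 0 fell, where 4.45% of all tested genes rose, and the median log2 fold change was 1.32. Leaving out single libraries gave 21 to 23 risen genes. Library-total scaling gave 31, where 15.8% of all tested genes rose. Small stress proteins made up the largest share, with 11 of 14 risen. HSP12 (YFL014W, chrVI:107256-107585, plus strand) had 2994 and 3672 normalized CPM in CRN/PPN1, against 134 and 125 in CRN (log2 fold change 4.69 ± 0.27 SE, adjusted p = 5.4e-08). DDR2 had 148 and 174 normalized CPM in CRN/PPN1, against 11.2 and 12.9 in CRN (log2 fold change 3.74 ± 0.24 SE, adjusted p = 1.7e-07). SIP18, a protein that protects membranes during drying, had 32.2 and 70.5 normalized CPM in CRN/PPN1, against 5.58 and 8.43 in CRN (log2 fold change 2.86 ± 0.49 SE, adjusted p = 0.0012). The CRN/PPN1 cultures differed more from each other in SIP18 than in HSP12 or DDR2. SPI1, a cell wall protein of stationary phase, had 242 and 235 normalized CPM in CRN/PPN1, against 55.8 and 41.02 in CRN (log2 fold change 2.3 ± 0.23 SE, adjusted p = 1.4e-05). MSC1, of unknown function, had 184 and 225 normalized CPM in CRN/PPN1, against 31.6 and 43.8 in CRN (log2 fold change 2.43 ± 0.23 SE, adjusted p = 9.3e-06).

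Of the heat shock proteins on the list, 6 of 9 rose. HSP104, the disaggregase that recovers heat-damaged proteins, had 485 and 640.5 normalized CPM in CRN/PPN1, against 193 and 255 in CRN (log2 fold change 1.33 ± 0.23 SE, adjusted p = 0.0012). HSP42, a small cytosolic chaperone, had 159 and 173 normalized CPM in CRN/PPN1, against 39.03 and 43.8 in CRN (log2 fold change 2.0 ± 0.21 SE, adjusted p = 2.5e-05). HSP26, its relative, had 108 and 162 normalized CPM in CRN/PPN1, against 43.99 and 32.6 in CRN (log2 fold change 1.82 ± 0.28 SE, adjusted p = 5.7e-04). HSP26 spread most between the CRN/PPN1 cultures, and none of the 3 overlapped CRN. HSP30, a regulator of the plasma membrane proton pump, had 77.5 and 102 normalized CPM in CRN/PPN1, against 16.1 and 21.4 in CRN (log2 fold change 2.25 ± 0.25 SE, adjusted p = 3.7e-05). Of the enzymes, GPD1, which makes glycerol under osmotic stress, had 136 and 145 normalized CPM in CRN/PPN1, against 43.4 and 42.7 in CRN (log2 fold change 1.71 ± 0.21 SE, adjusted p = 1.0e-04). Of the 8 oxidant defence genes on the list 1 rose, CTT1, the cytosolic catalase, with 86.5 and 119 normalized CPM in CRN/PPN1, against 14.2 and 21.4 in CRN (log2 fold change 2.52 ± 0.27 SE, adjusted p = 3.6e-05).

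Stress response elements are shown in the same way, in windows of HSP12, DDR2 and CTT1 from the stress list and of PHM7, which is not on it. AGGGG was found on either strand within 600 bases before the start codon in 192 of 245 risen genes (78.4%), in 86 of 256 fallen genes (33.6%) and in 2221 of all 5537 genes (40.1%). On the stress list it was found in 34 of 42 genes (81.0%), with 21 of the 24 risen and 13 of the 18 others. The list was again made from knowledge of the factors. At least 2 sites were found in 115 risen genes (46.9%), 19 fallen genes (7.42%) and 11.02% of all genes. Capitals mark AGGGG or its reverse CCCCT. The windows, from RefSeq build R64, are HSP12 from base -435 to -136 (chrVI:106821-107120, plus strand), DDR2 from base -300 to -1 (chrXV:231756-232055, minus strand), CTT1 from base -378 to -79 (chrVII:654256-654555, plus strand) and PHM7 from base -572 to -273 (chrXV:161784-162083, plus strand).
HSP12: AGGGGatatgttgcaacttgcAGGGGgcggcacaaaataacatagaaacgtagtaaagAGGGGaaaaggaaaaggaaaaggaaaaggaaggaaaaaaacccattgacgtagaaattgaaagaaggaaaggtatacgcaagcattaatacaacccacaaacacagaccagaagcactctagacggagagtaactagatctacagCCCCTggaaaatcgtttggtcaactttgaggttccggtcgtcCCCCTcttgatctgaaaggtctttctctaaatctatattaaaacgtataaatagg
DDR2: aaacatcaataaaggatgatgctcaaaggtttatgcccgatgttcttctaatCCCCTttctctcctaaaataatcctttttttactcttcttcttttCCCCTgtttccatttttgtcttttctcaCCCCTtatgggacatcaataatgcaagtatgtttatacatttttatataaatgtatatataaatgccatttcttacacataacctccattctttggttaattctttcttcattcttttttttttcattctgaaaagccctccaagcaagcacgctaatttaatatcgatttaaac
CTT1: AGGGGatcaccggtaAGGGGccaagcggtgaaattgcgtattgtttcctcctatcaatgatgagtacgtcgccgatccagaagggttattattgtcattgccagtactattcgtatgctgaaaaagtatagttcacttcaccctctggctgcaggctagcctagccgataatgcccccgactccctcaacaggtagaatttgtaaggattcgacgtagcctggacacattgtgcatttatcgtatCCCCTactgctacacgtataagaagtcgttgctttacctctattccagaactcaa
PHM7: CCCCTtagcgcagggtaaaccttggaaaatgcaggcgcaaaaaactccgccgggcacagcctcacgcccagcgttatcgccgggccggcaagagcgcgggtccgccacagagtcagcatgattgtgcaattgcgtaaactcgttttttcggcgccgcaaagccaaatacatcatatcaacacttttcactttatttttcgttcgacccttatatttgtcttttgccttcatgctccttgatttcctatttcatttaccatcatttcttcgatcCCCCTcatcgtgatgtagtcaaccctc

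HSP12 held 5 such elements, all in the window, DDR2 and CTT1 held 4 each with 3 in the window, and PHM7 held 2. PHM7 had no CACGTG in its 600 bases.

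Reserve carbohydrate genes rose with the stress list, where 4.45% of all tested genes rose. Of 17 genes for trehalose and glycogen, 10 rose and 0 fell, with a median log2 fold change of 1.25, and 15 of the 17 held AGGGG. TPS1, the trehalose phosphate synthase, had 284 and 281 normalized CPM in CRN/PPN1, against 83.6 and 92.7 in CRN (log2 fold change 1.68 ± 0.20 SE, adjusted p = 6.2e-05). TSL1, a regulatory subunit of the same complex, had 153 and 169.7 normalized CPM in CRN/PPN1, against 50.2 and 47.2 in CRN (log2 fold change 1.73 ± 0.22 SE, adjusted p = 1.0e-04). TPS2, the phosphatase of the complex, had 127 and 202 normalized CPM in CRN/PPN1, against 54.5 and 83.2 in CRN (log2 fold change 1.25 ± 0.26 SE, adjusted p = 0.0040). These were the 3 of 7 trehalose genes that rose. Of 10 glycogen genes 7 rose. GLC3, the branching enzyme, had 158 and 214 normalized CPM in CRN/PPN1, against 34.1 and 32.6 in CRN (log2 fold change 2.48 ± 0.23 SE, adjusted p = 9.3e-06). GSY1, a glycogen synthase, had 84.1 and 132 normalized CPM in CRN/PPN1, against 35.3 and 24.7 in CRN (log2 fold change 1.85 ± 0.31 SE, adjusted p = 0.0011). GPH1, the phosphorylase that breaks glycogen down, had 404 and 436 normalized CPM in CRN/PPN1, against 92.3 and 133 in CRN (log2 fold change 1.9 ± 0.22 SE, adjusted p = 5.0e-05). Genes for building and for breaking down glycogen thus rose together. PGM2, the phosphoglucomutase that feeds both stores, had 211 and 278 normalized CPM in CRN/PPN1, against 68.8 and 54.5 in CRN (log2 fold change 1.99 ± 0.23 SE, adjusted p = 6.2e-05).

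Genes named for stationary phase behaved alike, where 4.45% of all tested genes rose. Of 15 tested genes 8 rose and 0 fell, with a median log2 fold change of 2.3, although HSP12, SPI1 and GRE1 of that list also stand on the stress list. SPG4 had 41.6 and 89.2 normalized CPM in CRN/PPN1, against 8.67 and 6.74 in CRN (log2 fold change 3.08 ± 0.43 SE, adjusted p = 2.8e-04). SPG1 had 6.94 and 19.6 normalized CPM in CRN/PPN1, against 0.62 and 1.12 in CRN, at least 7.48-fold higher (adjusted p = 0.0075). FMP45, a membrane protein of the cell cortex, had 6.94 and 13.5 normalized CPM in CRN/PPN1, against 1.24 and 0 in CRN, at least 5.76-fold higher (adjusted p = 0.0024). Both CRN cultures were at or under the floor for SPG1 and FMP45. In the pentose phosphate pathway 3 of 11 genes rose, all of them minor isoforms. NQM1, a transaldolase, had 31.4 and 51.3 normalized CPM in CRN/PPN1, against 4.34 and 5.62 in CRN (log2 fold change 3.04 ± 0.42 SE, adjusted p = 2.8e-04), and SOL4, a phosphogluconolactonase, had 19.99 and 33.9 normalized CPM in CRN/PPN1, against 3.10 and 5.62 in CRN (log2 fold change 2.60 ± 0.44 SE, adjusted p = 0.0011). The third was GND2.

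Part of the glucose-repressed programme rose, where 4.45% of all tested genes did. Of 44 tested genes, 12 rose and 0 fell, with a median log2 fold change of 0.72, and 8 rose without the second CRN/PPN1 library. HXT7, a high-affinity hexose transporter nearly identical to HXT6 and so uncertain in these counts, had 936 and 1169 normalized CPM in CRN/PPN1, against 255 and 300.05 in CRN (log2 fold change 1.92 ± 0.20 SE, adjusted p = 2.9e-05). HXT2, another high-affinity transporter, had 173 and 215 normalized CPM in CRN/PPN1, against 77.4 and 84.8 in CRN (log2 fold change 1.25 ± 0.21 SE, adjusted p = 0.0011). The glucose kinases moved in the same direction, with HXK1 at 311 and 336 normalized CPM in CRN/PPN1, against 111 and 80.4 in CRN (log2 fold change 1.76 ± 0.21 SE, adjusted p = 6.2e-05). GLK1 had 217 and 274 normalized CPM in CRN/PPN1, against 60.1 and 74.2 in CRN (log2 fold change 1.87 ± 0.21 SE, adjusted p = 5.0e-05). For these transporters and kinases each CRN/PPN1 culture was above each CRN culture. CAT8, the activator of gluconeogenesis, had 14.3 and 14.8 normalized CPM in CRN/PPN1, against 2.48 and 2.25 in CRN (log2 fold change 2.60 ± 0.44 SE, adjusted p = 0.0011). ADR1, the activator of alcohol and fatty acid use, had 29.8 and 40.9 normalized CPM in CRN/PPN1, against 9.91 and 10.7 in CRN (log2 fold change 1.77 ± 0.29 SE, adjusted p = 9.5e-04). Of 12 genes of gluconeogenesis and the glyoxylate cycle 2 rose, among them CIT2, the peroxisomal citrate synthase, with 184 and 221 normalized CPM in CRN/PPN1, against 101 and 80.4 in CRN (log2 fold change 1.16 ± 0.21 SE, adjusted p = 0.0017). For lactate use, the transporter JEN1 had 14.3 and 26.1 normalized CPM in CRN/PPN1, against 5.58 and 6.18 in CRN (log2 fold change 1.77 ± 0.40 SE, adjusted p = 0.0075). CYB2, the lactate dehydrogenase, had 167 and 167 normalized CPM in CRN/PPN1, against 31.6 and 45.5 in CRN (log2 fold change 2.11 ± 0.23 SE, adjusted p = 3.6e-05).

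Fermentation and respiration showed few calls, where 4.45% of all tested genes rose and 4.45% fell. Of 19 glucose-induced genes of hexose transport, glycolysis and fermentation, 1 rose and 0 fell, with a median of 0.05. This was TDH1, the glyceraldehyde-3-phosphate dehydrogenase isoform of slow growth, with 1103 and 1089 normalized CPM in CRN/PPN1, against 528 and 501 in CRN (log2 fold change 1.09 ± 0.20 SE, adjusted p = 0.0020). Of 18 citric acid cycle genes none was called, with a median of 0.24. Under library-total scaling 5 of the 18 rose, where 15.8% of all tested genes rose. In the respiratory chain and ATP synthase, 2 of 37 rose and 1 fell, with a median of 0.03. CYC7, the minor isoform of cytochrome c, had 1586 and 1809.6 normalized CPM in CRN/PPN1, against 730.4 and 565 in CRN (log2 fold change 1.39 ± 0.21 SE, adjusted p = 4.9e-04). NDI1, the internal NADH dehydrogenase, had 45.3 and 47.4 normalized CPM in CRN/PPN1, against 20.4 and 17.98 in CRN (log2 fold change 1.27 ± 0.29 SE, adjusted p = 0.0073). ATP16, a subunit of the ATP synthase, had 188 and 193 normalized CPM in CRN/PPN1, against 385 and 396 in CRN (log2 fold change -1.04 ± 0.22 SE, adjusted p = 0.0052), and this fall was called in 9 of the 15 alternatives.

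Genes of the ribosome were lower under TMM scaling, where 4.45% of all tested genes fell. Of 137 cytosolic ribosomal protein genes, 69 fell and 0 rose, with a median log2 fold change of -1.0 and negative values in all 137. The number of falls depended on scaling and on single libraries. It was 1 with library totals, where the median was -0.46 against 0.50 over all genes, and 50 with upper-quartile scaling. It was 12 without the second CRN/PPN1 library, 34 without the first CRN library and 91 without the second CRN library. The direction of the median held in each of these. RPL23A, of the large subunit, had 877 and 811 normalized CPM in CRN/PPN1, against 2517 and 2182 in CRN (log2 fold change -1.48 ± 0.22 SE, adjusted p = 4.6e-04). RPS28B, of the small subunit, had 40.8 and 28.7 normalized CPM in CRN/PPN1, against 145 and 131 in CRN (log2 fold change -1.99 ± 0.30 SE, adjusted p = 5.2e-04). Many of these genes exist as near-identical pairs, so their counts are uncertain. Of 67 mitochondrial ribosomal protein genes 32 fell and 0 rose, with a median of -0.97, and library-total scaling left 6. MRPL51 had 322 and 362 normalized CPM in CRN/PPN1, against 1196 and 1058 in CRN (log2 fold change -1.72 ± 0.21 SE, adjusted p = 1.0e-04), and MRPL6 had 137 and 136 normalized CPM in CRN/PPN1, against 497 and 388 in CRN (log2 fold change -1.70 ± 0.19 SE, adjusted p = 4.4e-05).

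Ribosome assembly moved less. Counts in this paragraph are to be read against the 4.45% of all tested genes that rose and the 4.45% that fell. Of 55 nucleolar assembly factors 3 fell and 0 rose, with a median of -0.36 that turned to 0.12 with library totals, where none was called. The falls among them numbered 1 without the first CRN or the second CRN/PPN1 library, 6 without the first CRN/PPN1 library and 9 without the second CRN library. NIP7, a factor of large subunit assembly, had 171 and 151 normalized CPM in CRN/PPN1, against 498 and 407 in CRN (log2 fold change -1.49 ± 0.22 SE, adjusted p = 4.3e-04). Of 20 genes of RNA polymerases I and III, 6 fell, with a median of -0.61 that was -0.10 with library totals, where none fell, and there were 3 falls without the first CRN or the second CRN/PPN1 library. RPA12, a subunit of polymerase I, had 287 and 298 normalized CPM in CRN/PPN1, against 723 and 769.8 in CRN (log2 fold change -1.35 ± 0.21 SE, adjusted p = 5.9e-04), and RPC19, shared by both enzymes, had 255 and 249 normalized CPM in CRN/PPN1, against 767 and 531 in CRN (log2 fold change -1.36 ± 0.21 SE, adjusted p = 5.7e-04). With the length trend removed RPA12 was at -0.85 and RPC19 at -0.80, both within the fold limit. Of 27 translation factors 6 fell, with a median of -0.34 that turned to 0.16 with library totals, and 2 fell without the first CRN or the second CRN/PPN1 library. CDC33, the cap-binding protein, had 917 and 809.7 normalized CPM in CRN/PPN1, against 2280.5 and 1778 in CRN (log2 fold change -1.23 ± 0.22 SE, adjusted p = 0.0014). SUI1, an initiation factor that selects the start codon, had 3670.03 and 3679.6 normalized CPM in CRN/PPN1, against 8384 and 6738 in CRN (log2 fold change -1.04 ± 0.25 SE, adjusted p = 0.011). Of 10 histone genes 1 fell, HTB2, with 899.8 and 791 normalized CPM in CRN/PPN1, against 2495 and 1647 in CRN (log2 fold change -1.29 ± 0.24 SE, adjusted p = 0.0024). HTB2 was not called with library totals, at -0.75, or with the length trend removed, at -0.74. Small nucleolar and nuclear RNAs, whose capture by the library kit was not tested, had a median of 0.78. Of 71 of them 6 rose and 0 fell, where 4.45% of all tested genes rose. For example, snR77 had 37.1 and 45.7 normalized CPM in CRN/PPN1, against 14.2 and 7.87 in CRN (log2 fold change 1.91 ± 0.47 SE, adjusted p = 0.012), and snR3 had 43.7 and 42.2 normalized CPM in CRN/PPN1, against 17.97 and 8.43 in CRN (log2 fold change 1.71 ± 0.45 SE, adjusted p = 0.018). Of these RNAs 0 rose without the second CRN/PPN1 library, 2 without the first CRN/PPN1 library, 10 without the first CRN library and 1 without the second.

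Coding length moved with these values. The tested genes were split by length into 5 groups of nearly equal size. In the shortest group, 78 to 648 bp, the median log2 fold change was -0.51, and 47 genes rose and 194 fell. In the group from 1476 to 2127 bp it was 0.14, and 72 rose and 5 fell. Genes of the shortest group took 66.6% and 64.9% of gene counts in CRN/PPN1, against 78.2% and 71.8% in CRN. With the trend of fold change on length removed, 252 genes rose (4.55%) and 66 fell (1.19%). The PHO regulon then had 13 falls with a median of -2.43, and the stress list had 25 rises. Of the cytosolic ribosomal protein genes 1 fell, with a median of -0.52, and of the mitochondrial ones 9 fell. The part that length or RNA quality has in the ribosomal values was not tested, and most ribosomal protein genes are themselves short.

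**Figure D3:**
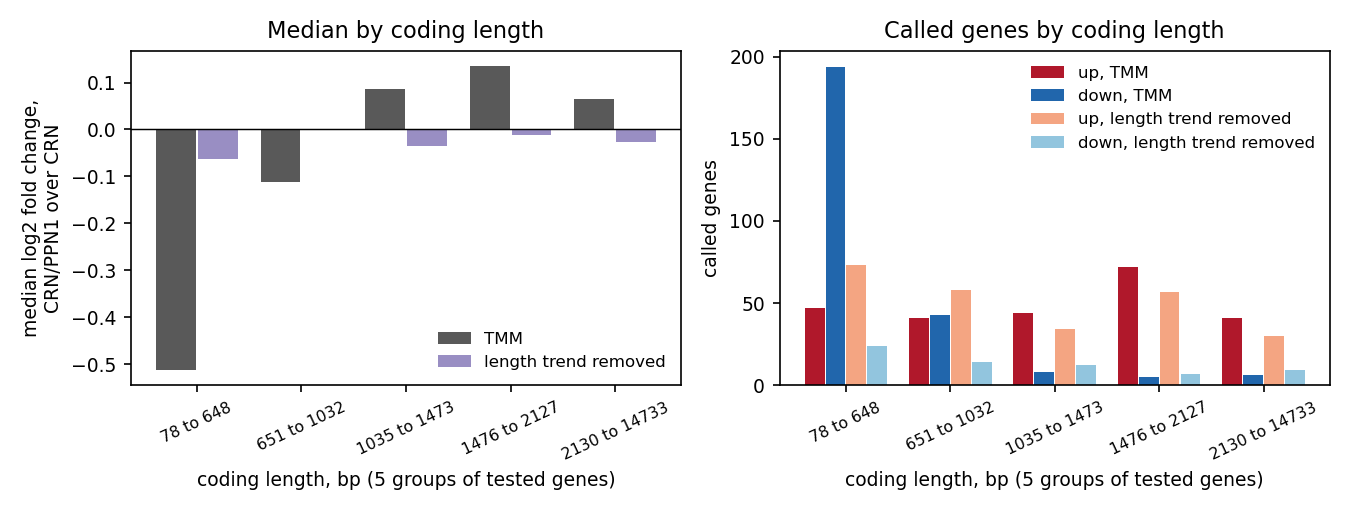
Median log2 fold change, CRN/PPN1 over CRN (left), and number of called genes (right) for 5 groups of the tested genes by coding length in bp, with TMM scaling and with the length trend removed. The shortest group holds 194 falls with TMM and 24 with the trend removed.

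Metal genes were read against the 4.45% of all tested genes that rose. Of 25 genes of the Aft1 iron regulon 3 rose and 0 fell, with a median log2 fold change of 0.58, and 14 rose with library totals. HMX1, the haem oxygenase, had 126 and 115 normalized CPM in CRN/PPN1, against 34.7 and 32.03 in CRN (log2 fold change 1.85 ± 0.21 SE, adjusted p = 4.4e-05). FRE2, a ferric reductase, had 31.8 and 32.6 normalized CPM in CRN/PPN1, against 11.2 and 7.30 in CRN (log2 fold change 1.81 ± 0.41 SE, adjusted p = 0.0073). SMF3, which releases iron from the vacuole, had 99.97 and 116 normalized CPM in CRN/PPN1, against 53.9 and 51.7 in CRN (log2 fold change 1.03 ± 0.22 SE, adjusted p = 0.0057). Each was higher in both CRN/PPN1 cultures than in both CRN cultures. Of 12 manganese transport genes 1 rose, with a median of 0.10. This was BSD2, an endoplasmic reticulum protein that sends the manganese transporters Smf1 and Smf2 to the vacuole for breakdown, with 165 and 189.7 normalized CPM in CRN/PPN1, against 92.3 and 73.05 in CRN (log2 fold change 1.10 ± 0.21 SE, adjusted p = 0.0028). The call held in 2 of the 4 fits that leave out a control library. PHO84, which also carries manganese, is described above. Of 16 zinc and copper genes CRS5, a copper metallothionein, rose alone, with 119 and 247 normalized CPM in CRN/PPN1, against 30.4 and 30.9 in CRN (log2 fold change 2.58 ± 0.34 SE, adjusted p = 1.6e-04). Among 22 other transporters of the plasma membrane and vacuole 2 rose. PMC1, the vacuolar calcium pump, had 103 and 106 normalized CPM in CRN/PPN1, against 51.4 and 49.4 in CRN (log2 fold change 1.05 ± 0.20 SE, adjusted p = 0.0024). PDR15, a drug exporter, had 58.4 and 63.5 normalized CPM in CRN/PPN1, against 17.3 and 27.5 in CRN (log2 fold change 1.43 ± 0.27 SE, adjusted p = 0.0024).

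Of 37 antioxidant enzymes 2 rose and 2 fell, which is near the 4.45% of all tested genes called in each direction. Beside CTT1, GPX1, a phospholipid hydroperoxide peroxidase, rose, with 40.4 and 46.99 normalized CPM in CRN/PPN1, against 19.8 and 6.74 in CRN (log2 fold change 1.73 ± 0.44 SE, adjusted p = 0.014). GPX2, a related peroxidase under the factor Yap1, had 98.3 and 92.7 normalized CPM in CRN/PPN1, against 252 and 225 in CRN (log2 fold change -1.32 ± 0.20 SE, adjusted p = 4.9e-04). GRX5, a mitochondrial glutaredoxin of iron-sulfur cluster assembly, had 79.98 and 93.5 normalized CPM in CRN/PPN1, against 188 and 232 in CRN (log2 fold change -1.28 ± 0.24 SE, adjusted p = 0.0025). Neither fall was called with library totals or with the length trend removed. Of 20 chaperones outside the stress list 2 rose and 1 fell. SSA1, an Hsp70, had 345 and 287 normalized CPM in CRN/PPN1, against 123 and 132 in CRN (log2 fold change 1.31 ± 0.20 SE, adjusted p = 5.8e-04). HSP82, an Hsp90, had 119 and 154 normalized CPM in CRN/PPN1, against 57.6 and 70.2 in CRN (log2 fold change 1.09 ± 0.22 SE, adjusted p = 0.0034). HSP10, the mitochondrial co-chaperonin, had 2497 and 2296 normalized CPM in CRN/PPN1, against 5201 and 4616 in CRN (log2 fold change -1.03 ± 0.22 SE, adjusted p = 0.0050). This fall was not called with library totals or with the length trend removed, and it was called in 2 of the 4 fits that leave out a library, those without the second CRN and without the first CRN/PPN1 library.

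In amino acid and nitrogen metabolism, most genes did not pass. The counts are to be read against the 4.45% of all tested genes that rose and the 4.45% that fell. Of 28 genes of sulfate assimilation and methionine synthesis 2 fell, with a median of -0.39 that turned to 0.11 with library totals. Beside MET14 this was MET2, which acetylates homoserine, with 8.57 and 10.9 normalized CPM in CRN/PPN1, against 22.3 and 24.7 in CRN (log2 fold change -1.27 ± 0.38 SE, adjusted p = 0.035), a call lost without any one of the 4 libraries. Of 46 Gcn4 targets 1 rose, ARG3 of arginine synthesis, with 92.2 and 75.3 normalized CPM in CRN/PPN1, against 35.9 and 37.1 in CRN (log2 fold change 1.20 ± 0.23 SE, adjusted p = 0.0030). Of 26 genes under nitrogen catabolite repression 2 rose. PUT4, the proline permease, had 35.5 and 47.4 normalized CPM in CRN/PPN1, against 23.5 and 16.3 in CRN (log2 fold change 1.06 ± 0.29 SE, adjusted p = 0.020). CAR1, the arginase, had 16.7 and 19.6 normalized CPM in CRN/PPN1, against 5.58 and 6.18 in CRN (log2 fold change 1.62 ± 0.40 SE, adjusted p = 0.012). Among 17 genes of inositol and phospholipid synthesis INO1, the inositol phosphate synthase, rose alone, with 39.6 and 34.8 normalized CPM in CRN/PPN1, against 11.8 and 15.2 in CRN (log2 fold change 1.46 ± 0.27 SE, adjusted p = 0.0020). None of 17 purine synthesis, 25 ergosterol, 32 proteasome and 18 cyclin and cell cycle genes was called.

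In the cell wall list of 45 genes 2 rose and 5 fell, where 4.45% of all tested genes rose and 4.45% fell. The rises on this list are near that share. The falls, apart from FLO11, were mannoproteins made mainly in cold or anaerobic cells. DAN1 had 0.408 and 0.435 normalized CPM in CRN/PPN1, against 32.2 and 30.9 in CRN, at or under the floor in both CRN/PPN1 cultures and at least 24.95-fold lower than in CRN (adjusted p = 2.7e-04). TIR1 had 1.63 and 1.31 normalized CPM in CRN/PPN1, against 35.3 and 35.4 in CRN (log2 fold change -4.55 ± 0.51 SE, adjusted p = 4.4e-05). TIR3 had 15.1 and 11.7 normalized CPM in CRN/PPN1, against 76.8 and 74.2 in CRN (log2 fold change -2.49 ± 0.42 SE, adjusted p = 0.0012), and TIR4 had 5.30 and 7.40 normalized CPM in CRN/PPN1, against 26.02 and 39.3 in CRN (log2 fold change -2.37 ± 0.41 SE, adjusted p = 0.0013). In all of them the CRN/PPN1 cultures lay well below the CRN cultures. The rises were SPI1 and PIR3. Of 18 autophagy and vacuolar protease genes 5 rose and 0 fell, with a median of 0.61. The number of rises was 2 without the first CRN or the second CRN/PPN1 library and 3 without the second CRN library. ATG8, the protein that coats autophagosomes, had 151 and 172 normalized CPM in CRN/PPN1, against 68.8 and 51.7 in CRN (log2 fold change 1.43 ± 0.21 SE, adjusted p = 4.9e-04). ATG39, a receptor for autophagy of the nucleus, had 48.97 and 75.3 normalized CPM in CRN/PPN1, against 12.4 and 21.4 in CRN (log2 fold change 1.87 ± 0.37 SE, adjusted p = 0.0034). PRB1, a vacuolar protease, had 238 and 247 normalized CPM in CRN/PPN1, against 91.1 and 55.6 in CRN (log2 fold change 1.73 ± 0.25 SE, adjusted p = 4.2e-04). Of the nutrient signalling genes, MIG1, a repressor that acts in glucose repression, had 83.2 and 71.8 normalized CPM in CRN/PPN1, against 45.2 and 31.5 in CRN (log2 fold change 1.02 ± 0.26 SE, adjusted p = 0.015). MIG1 was at 0.88 with the length trend removed and at 0.78 in the alternative with its lowest value, both within the fold limit.

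No marker gene of cell type was called. These were 6 genes of MATa cells, 3 tested genes of MATα cells, 5 haploid and 7 sporulation genes. The a-factor gene MFA1 had 1763 and 1932 normalized CPM in CRN/PPN1, against 2118 and 1591 in CRN. Of the MATα genes, SAG1 had 34.7 and 36.5 normalized CPM in CRN/PPN1, against 50.8 and 37.1 in CRN, and the others lay near the floor.

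**Figure D4:**
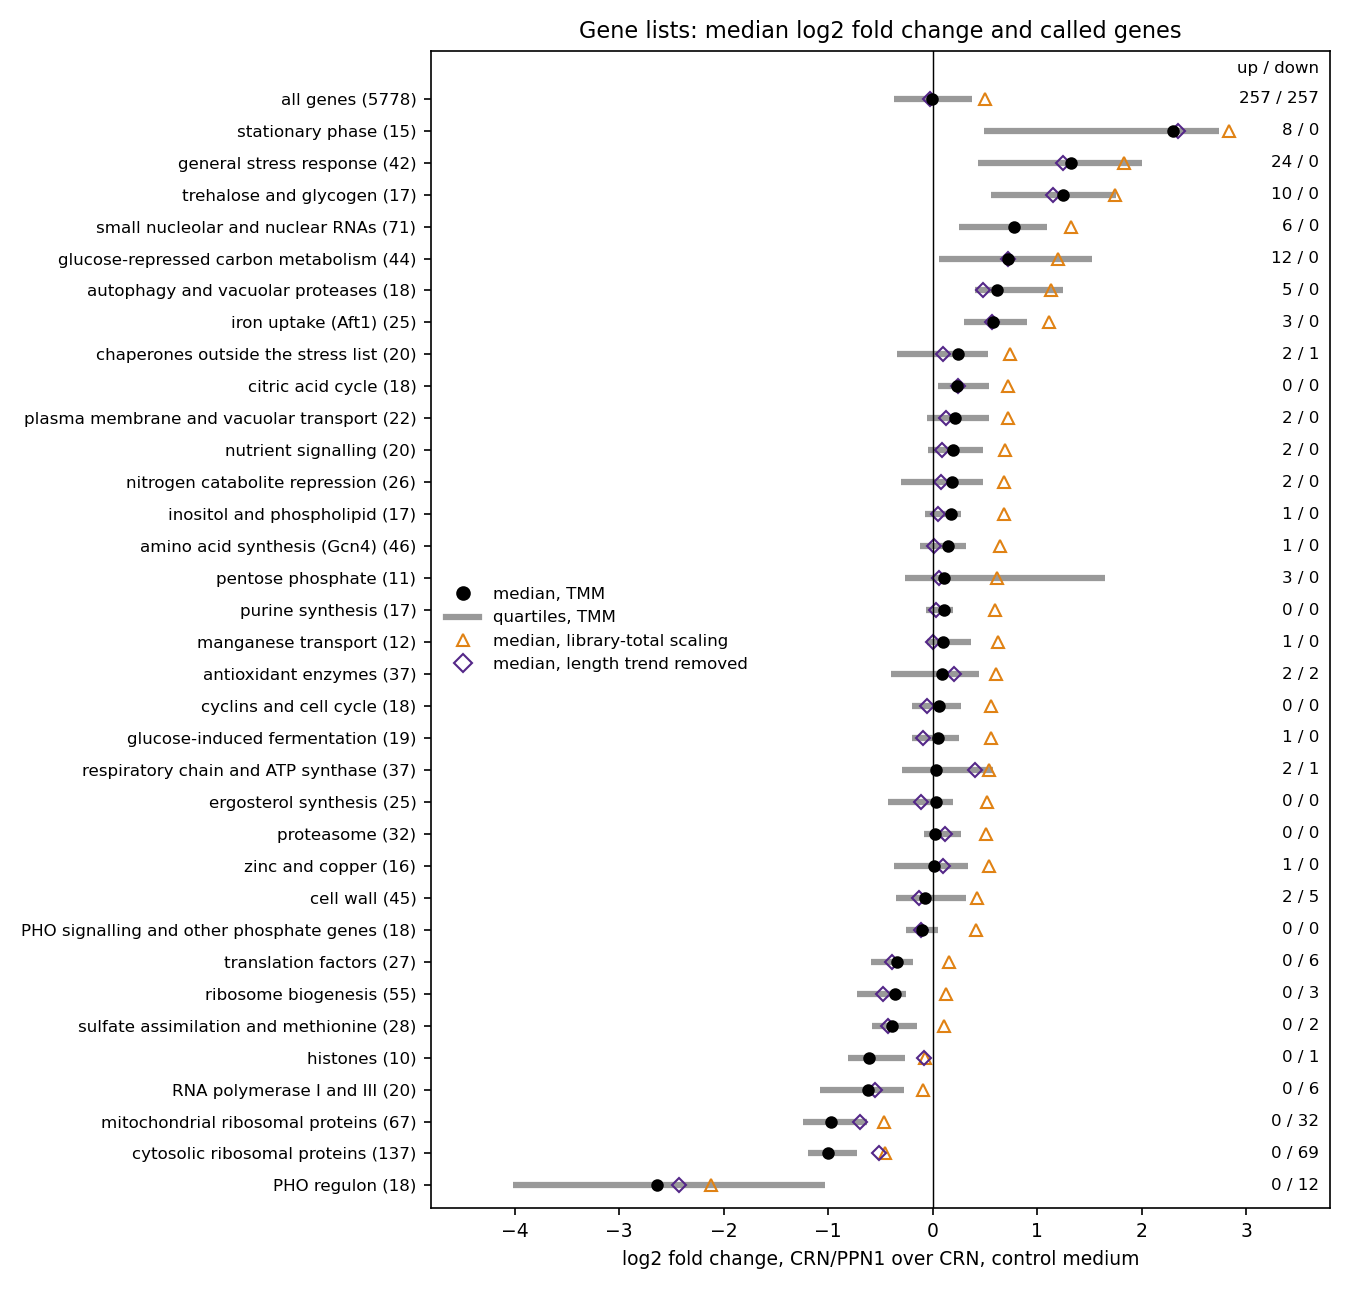
Median log2 fold change, CRN/PPN1 over CRN, of each gene list with at least 10 tested genes, with quartiles as grey bars, the medians under library-total scaling as triangles and those with the length trend removed as diamonds, and the numbers of genes that rose and fell at the right. The PHO regulon lies lowest with a median of -2.63 and the stationary phase list highest with 2.3, and the triangles lie to the right of the TMM medians by about the 0.50 by which the median of all genes moved.

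The strain difference was set beside that in manganese, which was measured on the other 4 libraries, where CRN/PPN1 was harvested at 16 h and CRN at 40 h, so that strain and time cannot be told apart there. In manganese 599 genes were higher in CRN/PPN1 (10.4%) and 426 lower (7.37%). Of the 257 genes that rose in control medium, 35 also rose in manganese (13.6%, or 5.84% of the manganese rises) and 42 fell there (16.3%, or 9.86% of the manganese falls). Of the 257 that fell in control medium, 12 also fell in manganese (4.67%, or 2.82% of the manganese falls) and 94 rose there (36.6%, or 15.7% of the manganese rises). The median log2 fold change in manganese was -0.11 for the control-medium rises and 0.75 for the falls. The difference between the media was itself tested as an interaction, which was called for 1538 genes (26.6%), among them 187 of the rises and 223 of the falls. The rises and falls were picked by their control-medium values, which enter the interaction with the opposite sign. Their counts are thus partly set by that choice.

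In the PHO regulon 7 of 18 genes were lower in CRN/PPN1 in manganese and none was higher, with a median of -0.64. VTC1 and PHO12, which fell in control medium, had log2 fold changes of 0.43 and 0.19 in manganese. PHO84 had a log2 fold change of -4.06 in manganese, and its interaction of 1.53 was called. The stress list was mixed in manganese, with 11 of 42 higher and 3 lower. HSP12 had a log2 fold change of 1.17 in manganese, where control medium gave 4.69. Of the glucose-repressed genes 3 were higher and 13 lower in manganese, and of the Aft1 iron genes 1 was higher and 12 lower. For the cytosolic ribosomal protein genes the direction turned round, with 125 of 137 higher in manganese and a median of 1.72.

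**Figure D5:**
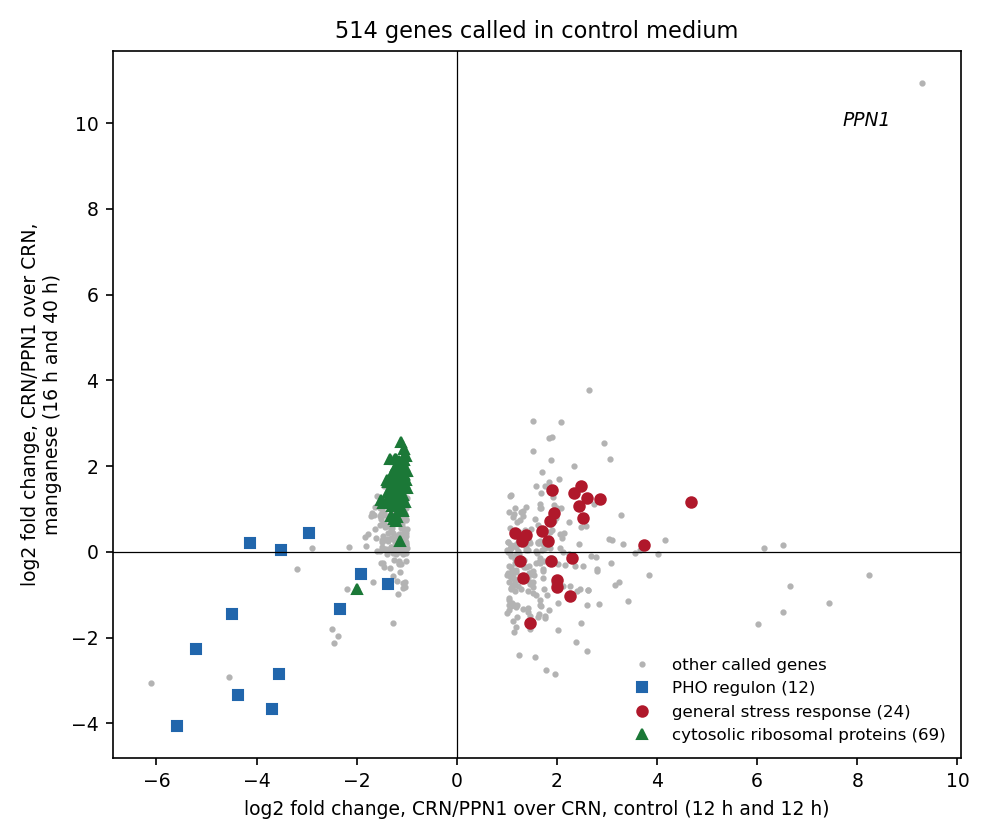
Log2 fold change of CRN/PPN1 over CRN in control medium (horizontal axis, both strains at 12 h) and in manganese (vertical axis, 16 h and 40 h) for the 514 genes called in control medium, with the called genes of the PHO regulon (12), the general stress list (24) and the cytosolic ribosomal proteins (69) marked. The marked ribosomal genes lie to the left and, but for 1 of them, above 0 on the vertical axis, being lower in CRN/PPN1 in control medium and higher in manganese. The marked PHO genes lie on the left and the marked stress genes on the right.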

How the data were processed

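RNA from 8 cultures was sequenced by the authors from one end with the TruSeq RNA v2 kit on a NextSeq 500. The authors used Trimmomatic 0.36 for trimming and STAR 2.5.3a for mapping and counting against the R64-1-1 annotation of Ensembl (sacCer3), per the labels and the submitters' processing notes. Multi-mapped reads were left out of the counts, and each replicate has its own file. The deposited files hold unnormalized counts for 7126 genes on either strand, on the gene strand and on the opposite strand, and a table of the whole series holds gene descriptions and counts. All 57008 values of that table equal the counts on the opposite strand, which were used.

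A gene entered the test if 4 or more of the 8 libraries reached 2 CPM, which kept 5778 genes and left out 1348. All 8 libraries were fitted as 4 groups in R 4.3.3 with edgeR 4.0.16 and limma 3.58.1 (TMM, quasi-likelihood F test in the form before version 4 of the package, two-sided, prior count 0.125, Benjamini-Hochberg adjustment over all tested genes), without a replicate block. The biological coefficient of variation was 0.18. Standard errors come from the F statistic. Where both libraries of a strain had at most 3 counts, the fold is a lower bound against that floor. The scripts were tested on simulated data. Reads assigned to no gene on the counted strand were 26.1% and 24.3% of all reads in CRN/PPN1, against 20.3% and 17.4% in CRN, and stayed out of library sizes.

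Promoters were read from the RefSeq genome R64 for 5537 genes, of which 5533 are followed by ATG, with both motifs searched on both strands. Gene-strand reads were tested the same way.

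The rule for named genes took PPN1 and the strain markers, the 12 largest rises and 12 largest falls whose normalized counts averaged 100 or more over the 4 control-medium libraries and did not overlap, and called members of the lists. Lists with many called members are given by counts and examples. The value of 1 list member is not reported here. The members, 40 lists and tests were chosen with earlier results of these data known. Alternatives were DESeq2 1.42.0, library-total and upper-quartile scaling, other filters, the 4 control-medium libraries alone, edgeR's later form, a replicate block, removal of a lowess trend on coding length, counts on either strand, no fold limit and leaving out each library.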

Additional observations from a re-analysis of the deposited data

Results flagged for a closer look

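The strain difference in manganese minus that in control medium was called for 70 of the 109 genes named here (adjusted p at most 0.0284, edgeR's quasi-likelihood test), and each value below is this difference on the log2 scale. In manganese the strains were harvested at different times, so strain and time cannot be told apart there. It was called for 47 of the 64 named genes that rose in control medium, and all 47 values were negative. Among the 34 that fell it was called for 22, and all 22 values were positive. The signs of values that were not called were not counted. Control-medium values enter the difference with the opposite sign. The only other gene with a call was PHO86, at 1.11.

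Stress, reserve and stationary phase genes that rose in control medium were HSP12 at -3.51, DDR2 at -3.58, TMA10 at -3.13, CTT1 at -1.73, HSP26 at -1.58, HSP42 at -2.81, HSP104 at -1.93, HSP30 at -3.28, SPI1 at -2.45, MSC1 at -1.36, GPD1 at -1.23, SPG4 at -3.35, SPG1 at -4.39, FMP45 at -4.06, TSL1 at -1.21, GSY1 at -3.22, GLC3 at -1.9, GPH1 at -1.38, PGM2 at -1.20, NQM1 at -2.75, SSA1 at -1.49 and HSP82 at -2.29. Genes of kinases, autophagy and mitochondria were MRK1 at -2.83, MPC3 at -3.25, HAB1 at -1.62, ATG17 at -2.78, ATG8 at -2.34, PRB1 at -2.34 and ATG39 at -2.0. Sugar and carbon genes were HXT2 at -1.88, GLK1 at -1.77, CAT8 at -4.91, ADR1 at -4.52, CYB2 at -1.78, JEN1 at -3.31, CIT2 at -1.43, TDH1 at -1.68 and MIG1 at -1.51. Metal, transport and lipid genes were CRS5 at -1.98, HMX1 at -1.40, FRE2 at -2.82, SMF3 at -2.12, BSD2 at -1.54, PMC1 at -2.17, PDR15 at -2.73 and INO1 at -2.94. PHM7 had the lowest value, -8.76, which rests on undetected counts in CRN in control medium.

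Genes of the PHO regulon that fell in control medium were PHO84 at 1.53, SPL2 at 2.94, PHO5 at 3.06, PHO12 at 4.32, PHM6 at 3.56, VTC1 at 3.37 and VTC4 at 1.39. Other fallen genes were FLO11 at 2.79, MET14 at 2.26, ATP16 at 1.51, NIP7 at 2.49, RPA12 at 2.62, RPC19 at 2.19, CDC33 at 2.15, SUI1 at 2.48, HTB2 at 3.47, GPX2 at 1.42, GRX5 at 2.54, HSP10 at 2.29, RPL23A at 2.63, MRPL51 at 2.56 and MRPL6 at 2.61. The causes of these differences were not tested.

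Reads on the gene strand lie outside the main measurement. Among the genes tested on it, PHO84 had a log2 fold change of 2.90, which missed the threshold (adjusted p = 0.055), and ATG17 had 2.20 (adjusted p = 0.016).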

How the results depend on the processing

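Of 98 named genes called in control medium, 66 kept their call in every alternative run, 32 lost it in at least 1 and 0 changed sign. The number of genes that rose was 257, with 913 under library-total scaling and 147 to 228 (lowest and highest of the fits leaving out each library, lowest without the second CRN/PPN1 library). The number that fell was 257, with 37 under library-total scaling, 66 with the length trend removed, 513 without the fold limit, and 105 to 340 leaving out each library. The rises made up 96.1% of calls with library totals, 63.1% with upper-quartile scaling, 79.2% with the length trend removed and 59.2% with the 4 control-medium libraries alone, against 50%. The interaction was called for 1538 genes, with 2515 under library-total scaling. Of the named genes, library totals lost 13 calls, the length trend 16 and leaving out the second CRN/PPN1 library 21. DESeq2 called 254 rises and 283 falls. Genes near no change turned sign. HIS3, at -0.03, had 0.48 with library totals, 0.063 with the upper quartile, 0.026 with 4 libraries, 0.33 with length removed and -0.36 to 0.24 leaving out each library. PHM8, at -0.00, had 0.52 with library totals, 0.094 with the upper quartile, 0.055 with 4 libraries, 0.094 on either strand and -0.12 to 0.12 leaving out each library. GPP2 had -0.42 on either strand. A replicate block gave 283 rises and 254 falls and changed no call of a named gene. The deviations of same-numbered cultures correlated by 0.036 to 0.217 over the 6 pairs of groups, above 0.1 in 5 of them. The labels tie the numbers to no shared day or batch, and with 2 cultures a group they were not used as pairs. With 2 cultures a strain, 3 counts a library as the floor and a short-gene share that moves with strain, small changes and changes of rare transcripts could not be resolved. The causes of these movements were not tested.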

Other observations

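Of the 257 risen genes 172 are on none of the lists, and of the 257 fallen genes 117. The genes named in these paragraphs were chosen after their values were seen. Among the risen ones, ATO2, a membrane protein tied to ammonia export, had 36.7 and 48.7 normalized CPM in CRN/PPN1, against 3.10 and 1.69 in CRN (log2 fold change 4.15 ± 0.48 SE, adjusted p = 6.1e-05). IGD1, an inhibitor of glycogen debranching, had 84.9 and 89.2 normalized CPM in CRN/PPN1, against 16.7 and 23.04 in CRN (log2 fold change 2.12 ± 0.25 SE, adjusted p = 6.2e-05), and GIP2, a subunit that directs phosphatase Glc7 to glycogen metabolism, had 20.8 and 21.8 normalized CPM in CRN/PPN1, against 4.96 and 2.81 in CRN (log2 fold change 2.46 ± 0.41 SE, adjusted p = 0.0010). DCS2, a stress-induced regulator of mRNA cap breakdown, had 47.7 and 68.7 normalized CPM in CRN/PPN1, against 9.29 and 15.2 in CRN (log2 fold change 2.24 ± 0.31 SE, adjusted p = 3.0e-04). RIM8, of the alkaline pH pathway, had 17.1 and 26.1 normalized CPM in CRN/PPN1, against 3.72 and 3.37 in CRN (log2 fold change 2.59 ± 0.52 SE, adjusted p = 0.0034). YNL194C, a membrane protein related to FMP45, had 28.97 and 32.6 normalized CPM in CRN/PPN1, against 0.62 and 0 in CRN, at or under the floor in both CRN libraries (adjusted p = 6.2e-05).

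Among the fallen genes outside the lists, COX23, of copper handling in the intermembrane space, had 38.4 and 33.9 normalized CPM in CRN/PPN1, against 149 and 99.5 in CRN (log2 fold change -1.78 ± 0.28 SE, adjusted p = 6.8e-04). PET117, for assembly of cytochrome c oxidase, had 159 and 143 normalized CPM in CRN/PPN1, against 554 and 383 in CRN (log2 fold change -1.63 ± 0.27 SE, adjusted p = 9.5e-04). MZM1, a chaperone of the cytochrome bc1 complex, had 134 and 118 normalized CPM in CRN/PPN1, against 419 and 368 in CRN (log2 fold change -1.64 ± 0.22 SE, adjusted p = 2.3e-04). The import motor subunit PAM16 had 244 and 189.7 normalized CPM in CRN/PPN1, against 741 and 507 in CRN (log2 fold change -1.52 ± 0.23 SE, adjusted p = 4.9e-04), and the receptor TOM20 had 156 and 132 normalized CPM in CRN/PPN1, against 467 and 326 in CRN (log2 fold change -1.46 ± 0.22 SE, adjusted p = 5.6e-04). These genes are short, and their values with the length trend removed were -1.21 for COX23, -1.16 for PET117, -1.13 for MZM1, -0.96 for PAM16 and -0.94 for TOM20 on the log2 scale, so that PAM16 and TOM20 lay within the fold limit.

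The fallen genes DAN1, TIR1, TIR3, TIR4 and ANB1 are known for expression when oxygen is scarce. A list of 16 genes of the oxygen response, the repressor ROX1 among them, was picked after these falls were seen. Of the 16, 5 fell and 1 rose, where 4.45% of all tested genes rose and 4.45% fell. The 5 falls are the genes that prompted the list, so they are no separate evidence about it. AAC3, the anaerobic ADP/ATP carrier, had 1.22 and 6.09 normalized CPM in CRN/PPN1, against 11.8 and 16.3 in CRN (adjusted p = 0.099). HEM13, of haem synthesis, had 36.3 and 29.2 normalized CPM in CRN/PPN1, against 52.7 and 63.5 in CRN (log2 fold change -0.83, adjusted p = 0.036), within the fold limit. COX5B, the hypoxic subunit of cytochrome c oxidase, had 488 and 481 normalized CPM in CRN/PPN1, against 558 and 410.2 in CRN (adjusted p = 0.997), and CYC7 is the gene that rose. ROX1, the repressor of hypoxic genes, had 92.6 and 55.7 normalized CPM in CRN/PPN1, against 75.6 and 50.01 in CRN (adjusted p = 0.73).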
